A study of Mus musculus with 31 samples.

Results

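The 36 genes described here are genes of the oligodendrocyte lineage and of the myelin sheath other than the major structural myelin proteins. They comprise 5 transcription factors (Sox10, Olig1, Olig2, Nkx6-2 and Myrf), 3 surface proteins of precursor cells (Pdgfra, Cspg4 and Gpr17), 10 enzymes, 12 membrane and junction proteins and 6 cytoskeletal, carrier and stress proteins. They were taken from a list of gene names that was chosen with earlier results of these data known. Of the 36 genes, 35 had a row among the 20436 gene symbols of the count tables, and all 35 passed the filter on low counts in both assays. Nkx6-2 was not analysed here. The 7 measured transcription factors and precursor genes are called lineage genes below and the other 28 late maturation genes.

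Ribosome footprints and polyadenylated mRNA were sequenced from cortex of mice aged 29 to 34 postnatal days. Footprints are the stretches of mRNA that ribosomes shield from nuclease, so a count of them reads how many ribosomes sit on a coding sequence, while mRNA sequencing reads how much transcript there is. The 4 genotypes were wild type (WT), mice deficient in Fmr1 (FXS, named for fragile X syndrome), mice that lack Rps6kb1, the gene of the S6 kinase S6K1 (here S6K1), and mice that lack both genes (DKO). Each genotype had 4 mRNA libraries, 16 in all, and of the 15 footprint libraries 4 were WT, 5 FXS, 3 S6K1 and 3 DKO. The alleles, the strain, the sex and the number of mice behind a library are not given in the sources used here, so p-values measure the spread between libraries, which may be technical. Replicate numbers below follow the order of deposit and pair nothing, and batches are those of the labels.

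Oligodendrocytes arise from precursor cells that carry the growth factor receptor PDGFRA, and the transcription factors SOX10, OLIG1 and OLIG2 set their identity, while MYRF switches on the genes of myelination in cells that leave the precursor state. Mature cells make the lipids galactosylceramide and sulfatide, long fatty acids with a hydroxyl group, tight junctions between the turns of myelin and gap junctions to neighbouring cells. FMRP, the product of Fmr1, binds mRNAs and slows their translation, and S6K1 is a kinase of the mTOR pathway that acts on the translation machinery.

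Libraries held 12.1 to 17.3 M counts for mRNA and 16.6 to 34.9 M counts for footprints. The labels were checked on the targeted genes: Fmr1 mRNA fell by 2.05 on the log2 scale in FXS and fell by 2.15 in DKO, and Rps6kb1 footprints fell by 1.63 in S6K1 and fell by 1.44 in DKO, all against WT. Markers of cortical excitatory neurons, of astrocytes and of microglia were present in all libraries. Markers of striatum summed to 106 to 620 CPM (counts scaled to a common library total) across footprint libraries and 283 to 518 CPM across mRNA libraries. Levels are given in CPM with TMM scaling of library sizes. A gene was called changed at an adjusted p under 0.05 in edgeR's quasi-likelihood test with Benjamini-Hochberg adjustment over all genes tested.

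The footprints of the oligodendrocyte genes were lower than WT in every mutant, while their mRNA medians lay nearer to WT. In FXS the footprint log2 fold change was below 0 for 35 of 35 genes, with a median of -0.50. In S6K1 it was below 0 for 32 of 35 with a median of -0.39, and in DKO for 33 of 35 with a median of -0.58. Over all genes tested the medians of the same contrasts were 0.00, -0.02 and -0.01, and 50.3%, 54.2% and 52.0% of genes lay below 0. The mRNA log2 fold change was below 0 for 29 of 35 genes in FXS, 8 in S6K1 and 14 in DKO, where 52.1%, 48.8% and 50.6% of all genes lay below 0. The mRNA medians of the 35 genes were -0.10 in FXS, 0.06 in S6K1 and 0.06 in DKO. With 1 library left out they ran from -0.18 to -0.038, from 0.0024 to 0.10 and from -0.00062 to 0.093. The 3 mutants were compared with the same WT libraries, so their likeness is not independent. In a cortex homogenate, fewer cells of a type and less RNA or fewer ribosomes per cell cannot be told apart.

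Footprints of 5 genes fell in FXS against WT, of 35 tested, where 0.165% of all genes were called and 0.151% were called lower. These were Myrf, Sept4, Fa2h, Ugt8a and Ndrg1. In DKO footprints of 11 genes fell, against 0.366% of all genes called and 0.337% called lower, and these were the same 5 with Plekhb1, Opalin, Gjb1, Pllp, Gal3st1 and Qdpr. In S6K1 no footprint value of the 35 passed edgeR's test, which called 0.00717% of all genes. At an unadjusted p under 0.05 stood 19 of the 35, against 8.74% of all genes, and DESeq2 called 1 and limma voom 0. In FXS mRNA 0 of 35 were called by edgeR, which called 0.155% of all genes, 1 by DESeq2 (1.41% of all genes) and 0 by limma voom. There 11 of the 35 stood at an unadjusted p under 0.05, against 12.7% of all genes. With only WT and FXS fitted, 5 were called in FXS mRNA, 4 lower and 1 higher, against 3.2% of all genes. In S6K1 mRNA 0 were called by each of the 3 tools, with 0.0211% of all genes called by edgeR, and 4 stood at an unadjusted p under 0.05, against 7.37% of all genes. In DKO mRNA 5 of 35 were called, 3 higher (Olig1, Gpr17, Aatk) and 2 lower (Aspa, Enpp2), where 5.23% of all genes were called, 3.17% higher and 2.06% lower.

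**Figure D1:**
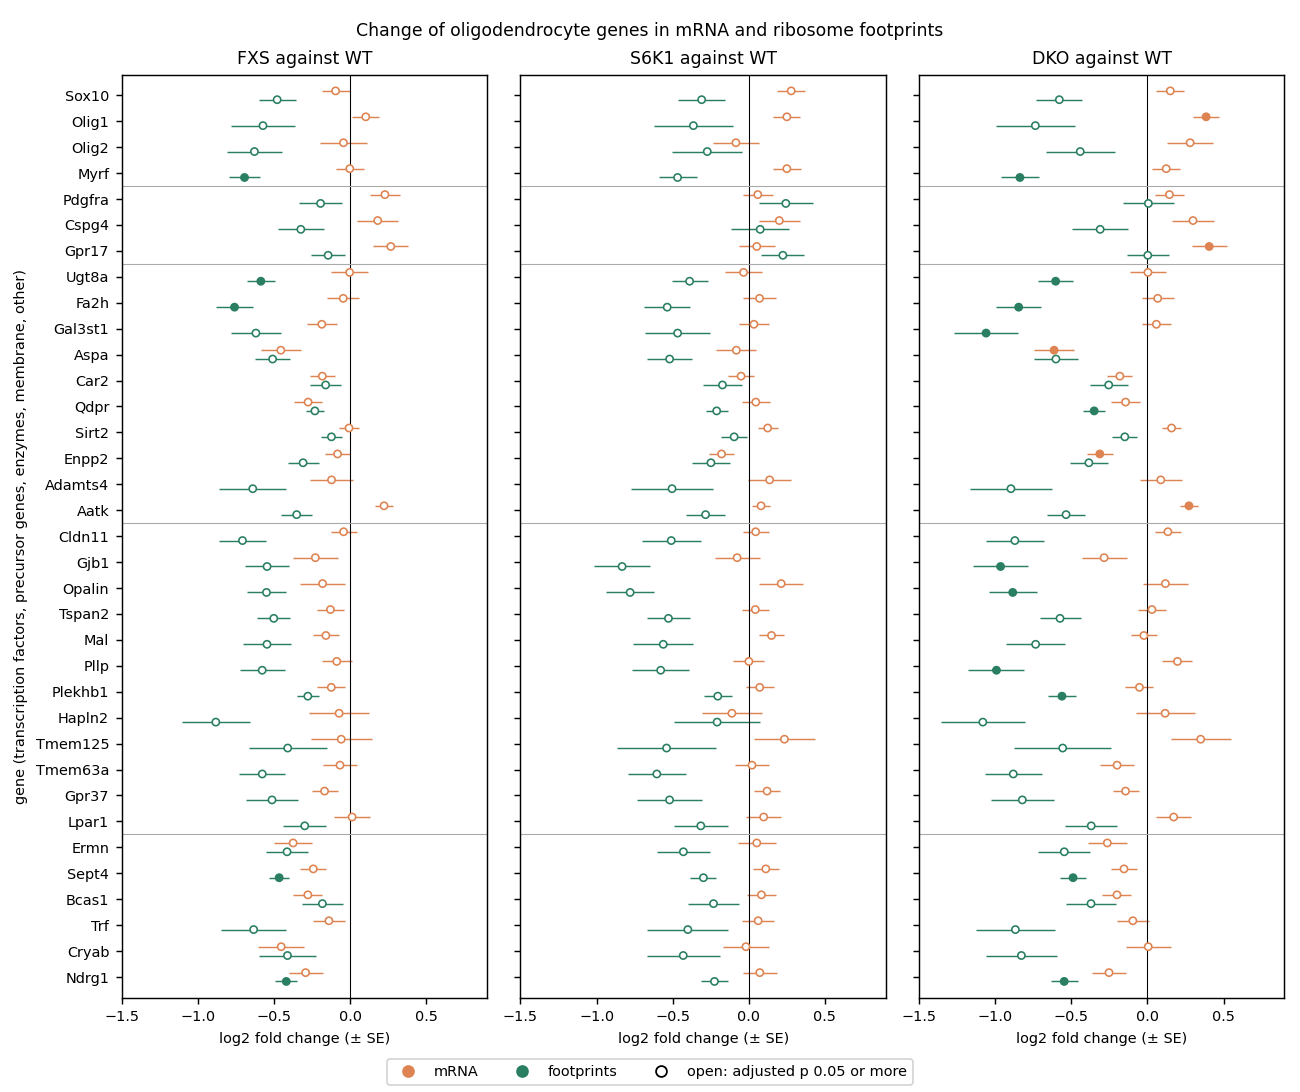
Log2 fold change against WT (x axis, bars ± SE) of 35 oligodendrocyte genes (y axis, grouped by role) in mRNA and footprints for FXS, S6K1 and DKO; filled points have an adjusted p under 0.05. Footprint points lie left of 0 for 35, 32 and 33 of the 35 genes, while mRNA points lie left of 0 for 29, 8 and 14.

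Libraries of one genotype also differed among themselves. Summed over the 28 late maturation genes, footprints were 2253, 2970, 2309 and 2064 CPM in the WT libraries, 1869, 2092, 2074, 1606 and 1573 CPM in FXS, 2100, 2100 and 2150 CPM in S6K1, and 1904, 1801 and 1541 CPM in DKO. WT replicate 2, of batch 3, was the highest of the 15 libraries, every DKO library lay below every WT library, and FXS overlapped WT at the edge. Summed over the 7 lineage genes, footprints were 251, 307, 250 and 249 CPM in WT, 221, 243, 161, 203 and 187 CPM in FXS, 186, 276 and 229 CPM in S6K1, and 148, 190 and 198 CPM in DKO. Here FXS and DKO lay wholly below WT and S6K1 overlapped it.

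Without WT replicate 2, which also had the lowest summed striatal markers of the WT footprint libraries (146 CPM against 290 to 620), the footprint median of the 35 genes was -0.42 in FXS with 35 of 35 below 0, -0.24 in S6K1 with 29 below 0, and -0.53 in DKO with 33 below 0. The counts of called genes were then 5 in FXS and 2 in DKO. Without FXS replicate 5 no gene of the list was called in FXS, and without DKO replicate 2 or replicate 3 none in DKO. Without WT replicate 1 the counts were 12 in FXS and 17 in DKO. The medians kept their sign in each of these, while the number of calls ran from 0 to 17. The share of all genes called in these refits is not given here, so the counts have no background beside them.

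The shift was also read inside batches, where the labels give both genotypes the same batch. The footprint median of the 35 genes in FXS against WT was -0.19 in batch 2 with 25 of 35 below 0, -0.79 in batch 3 with 33 below 0, and -0.56 in batch 4 with 35 below 0. In DKO against WT it was -0.87 in batch 3 and -0.58 in batch 4. In S6K1 against WT it was -0.12 in batch 2, where 21 of 35 were below 0, and -0.60 in batch 3. Batch 3 holds WT replicate 2 as its only WT library, and batch 1 holds no WT library, so DKO and S6K1 each met WT in 2 batches.

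**Figure D2:**
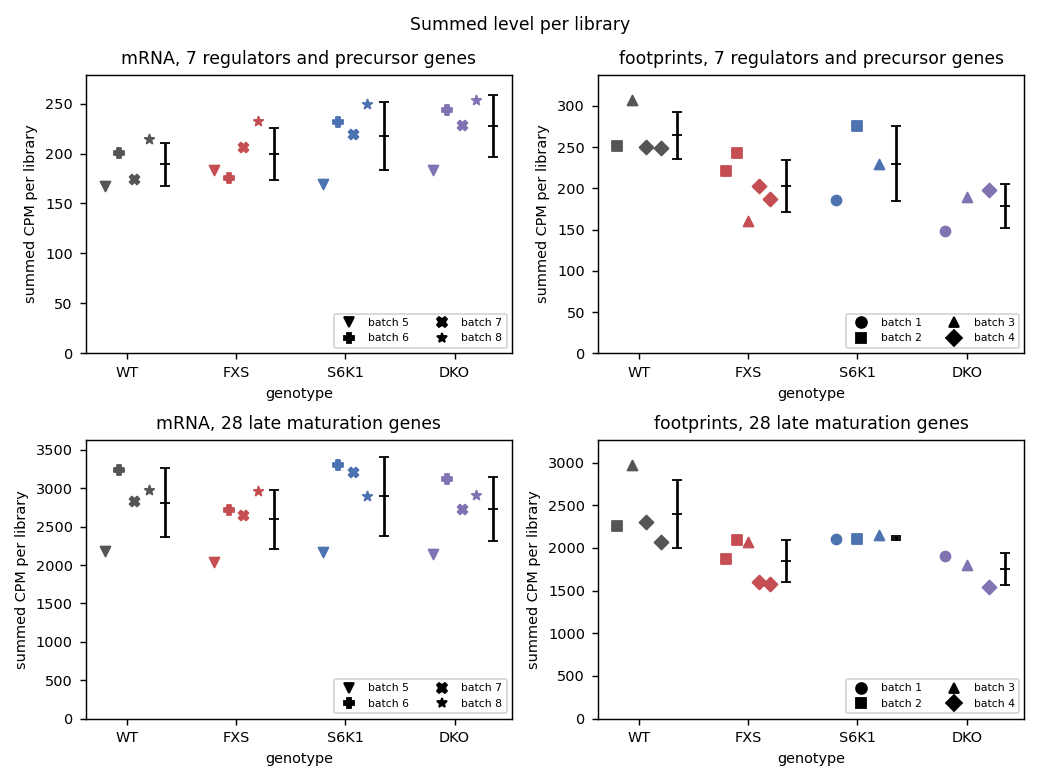
Summed CPM per library (y axis) of the 7 lineage genes and the 28 late maturation genes in mRNA and footprints, by genotype (x axis); marker shape gives the batch and the bar the mean ± SD of the genotype. Late footprints of DKO (1541 to 1904 CPM) lie below all WT libraries (2064 to 2970 CPM), and in mRNA the 4 libraries of batch 5 are the lowest of each genotype for the late genes.

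Among the lineage genes the transcription factors and the precursor genes differed in pattern. All 4 measured transcription factors had footprint log2 fold changes below 0 in each mutant, with medians of -0.60 in FXS, -0.34 in S6K1 and -0.66 in DKO. Their mRNA medians were -0.02, 0.25 and 0.22. The 3 precursor genes had footprint medians of -0.20, 0.22 and 0.00, and mRNA log2 fold changes above 0 in all 3 mutants.

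Myrf, the membrane-bound factor that starts the myelination program, fell in footprints with little movement of its mRNA. Its mRNA was 25.3, 30.8, 29.2 and 27.7 CPM in WT, 26.1, 25.3, 28.3 and 32.8 CPM in FXS, 27.1, 39.1, 32.0 and 36.8 CPM in S6K1, and 27.5, 33.8, 28.6 and 33.4 CPM in DKO. These ranges overlapped for every pair of genotypes. Its footprints were 34.1, 37.0, 27.8 and 25.5 CPM in WT, 22.5, 25.2, 17.5, 18.4 and 16.9 CPM in FXS, 16.7, 29.9 and 22.4 CPM in S6K1, and 14, 18.7 and 14.1 CPM in DKO. All FXS and all DKO libraries lay below all WT libraries, and S6K1 overlapped WT. On the log2 scale its footprints differed from WT by -0.69 ± 0.0988 (SE, adjusted p 0.0127) in FXS and -0.84 ± 0.124 (adjusted p 0.0132) in DKO, and -0.47 ± 0.125 (adjusted p 0.299) in S6K1. Within batches it was -0.52, -1.08 and -0.59 in FXS (batches 2, 3 and 4) and -0.98 and -0.92 in DKO (batches 3 and 4). The FXS call was lost without FXS replicate 5 (adjusted p 0.0776), and the DKO call without DKO replicate 2 or replicate 3 (0.153 at the highest).

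Sox10, needed for the oligodendrocyte fate and for myelin gene expression, had footprints of 46.7, 52.5, 63.3 and 53.9 CPM in WT, 40.3, 41.8, 27.6, 44.1 and 41.9 CPM in FXS, 20.5, 42.2 and 41.1 CPM in S6K1, and 22, 25 and 42.3 CPM in DKO. Every mutant library lay below every WT library. The test over all genes did not call it: the footprint log2 fold change was -0.48 ± 0.122 (adjusted p 0.166) in FXS and -0.58 ± 0.152 (0.113) in DKO. Its mRNA ran from 30.6 to 41.0 CPM in WT and from 30.6 to 45.7 CPM in the mutants.

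Olig1, a basic helix-loop-helix factor of maturing oligodendrocytes, rose in DKO mRNA while its footprints lay below WT. Its mRNA was 55.4, 57.7, 45.5 and 64.9 CPM in WT, 60.6, 51.0, 60.4 and 67.1 CPM in FXS, 62.5, 72.2, 65.4 and 64.8 CPM in S6K1, and 65.7, 74.7, 73.4 and 77.9 CPM in DKO. Every DKO library was above every WT library, which 3.4% of all genes showed in mRNA, and mRNA rose by 0.39 ± 0.0872 on the log2 scale (SE, adjusted p 0.0145). Without WT replicate 3 the value was 0.30 (adjusted p 0.0931). Its footprints were 61.5, 72.2, 69.0 and 72.6 CPM in WT, 53.7, 56.2, 24.1, 59.5 and 54.6 CPM in FXS, 18.2, 58.2 and 43.0 CPM in S6K1, and 17.5, 22.7 and 55.8 CPM in DKO. Each mutant library was below WT, but the spread within mutants was wide and the log2 fold change of -0.74 ± 0.258 in DKO had an adjusted p of 0.205.

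Olig2, the partner factor that specifies the lineage, passed no edgeR test against WT. Its footprints were 27.6, 25.7, 20.5 and 22.1 CPM in WT, 20.6, 15.5, 9.57, 19 and 16.7 CPM in FXS, 6.87, 19.9 and 18.6 CPM in S6K1, and 6.76, 11.3 and 22.2 CPM in DKO. S6K1 lay below WT and the others overlapped it. The log2 fold changes were -0.63 ± 0.183 (adjusted p 0.249), -0.27 ± 0.230 (0.807) and -0.44 ± 0.227 (0.335) for FXS, S6K1 and DKO.

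The low footprint values of Sox10, Olig1 and Olig2 came from the same libraries. Summed over the 4 transcription factors, FXS replicate 3 had 78.8 CPM, S6K1 replicate 1 had 62.2, DKO replicate 1 had 60.3 and DKO replicate 2 had 77.6, while the other 7 mutant libraries had 125 to 150 CPM and WT had 170 to 187 CPM. The 4 low libraries belong to batches 1 and 3. Batch 3 also holds WT replicate 2 and S6K1 replicate 3, which were not among the low ones. In the same 4 libraries the precursor genes summed to 82.2 to 124 CPM, inside or above the 69.4 to 120 CPM of WT, so the lineage genes did not move together there. The part of the batch in this was not tested.

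Pdgfra, the receptor that drives precursor division, had footprints of 32.6, 53.9, 27.1 and 28.4 CPM in WT, 37.8, 41.7, 38.8, 22.3 and 22.4 CPM in FXS, 72.6, 56.8 and 42.9 CPM in S6K1, and 49.0, 54.1 and 25.7 CPM in DKO. All mutants overlapped WT, and the footprint log2 fold changes were -0.20 ± 0.142 in FXS, 0.24 ± 0.178 in S6K1 and 0.01 ± 0.169 in DKO (adjusted p 0.676, 0.756 and 0.988). Cspg4, the NG2 proteoglycan of precursors and pericytes, had log2 fold changes of -0.32 ± 0.152, 0.07 ± 0.191 and -0.31 ± 0.184 (adjusted p 0.512, 0.953 and 0.391). Its footprints ran from 17.2 to 30.9 CPM in WT and from 14.1 to 31.9 CPM in the mutants.

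Gpr17, a receptor of committed precursors, rose in DKO mRNA by 0.41 ± 0.115 on the log2 scale (SE, adjusted p 0.0413). Its mRNA was 12, 14.7, 17.1 and 19.7 CPM in WT and 14.5, 21.0, 22.7 and 26.2 CPM in DKO, so the groups overlapped, while within each of the 4 batches DKO was above WT, by 0.28 to 0.52. The call was lost whenever any 1 of the 8 libraries was left out, with an adjusted p of up to 0.148 without WT replicate 2. Its footprints were 25.6, 35.3, 25.1 and 24.1 CPM in WT and 22.4, 32.7 and 23.4 CPM in DKO, a log2 fold change of 0.00 ± 0.137.

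**Figure D3:**
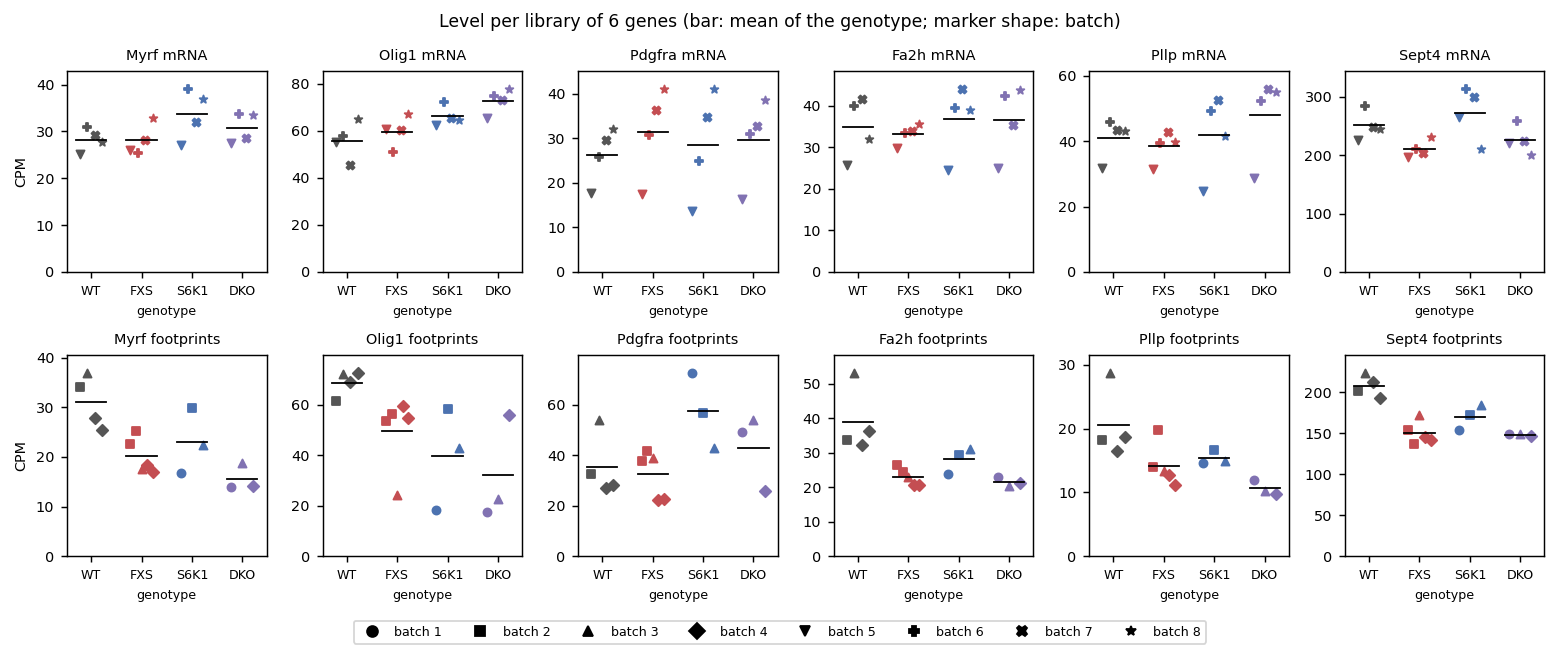
CPM per library (y axis) of Myrf, Olig1, Pdgfra, Fa2h, Pllp and Sept4 in mRNA (top) and footprints (bottom) by genotype (x axis); marker shape gives the batch and the bar the mean of the genotype. Myrf, Fa2h and Sept4 footprints of all FXS and DKO libraries lie below WT, Pdgfra footprints overlap, and Olig1 footprints split by library within the mutants.

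The 10 enzymes had footprint log2 fold changes below 0 in every mutant, with medians of -0.43 in FXS, -0.34 in S6K1 and -0.57 in DKO, beside mRNA medians of -0.10, 0.04 and 0.03. The 3 that build the galactolipids of myelin were among those that fell in DKO footprints. Fa2h, which adds the hydroxyl group to fatty acids of myelin lipids, had footprints of 33.6, 53.2, 32.3 and 36.4 CPM in WT, 26.6, 24.5, 23.1, 20.7 and 20.5 CPM in FXS, 23.7, 29.4 and 31.2 CPM in S6K1, and 22.9, 20.5 and 21.1 CPM in DKO. Every mutant library was below every WT library. The log2 fold change was -0.76 ± 0.120 in FXS (SE, adjusted p 0.0208) and -0.85 ± 0.149 in DKO (0.0310), and -0.54 ± 0.150 in S6K1 (0.319). Mean Fa2h mRNA was 34.9 ± 7.32 CPM in WT, 33.2 ± 2.44 CPM in FXS and 36.6 ± 8.59 CPM in DKO (SD, n = 4 each).

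Ugt8a makes galactosylceramide from ceramide. Its footprints were 109, 167, 82.3 and 100.02 CPM in WT, 85.7, 90.5, 106, 56.9 and 55.5 CPM in FXS, 164, 112 and 106 CPM in S6K1, and 148, 100.21 and 57.2 CPM in DKO. The groups overlapped. In batch 4 the WT libraries had 82.3 and 100.02 CPM and the FXS and DKO libraries 55.5 to 57.2 CPM. With batch in the model the log2 fold change was -0.59 ± 0.0933 in FXS (SE, adjusted p 0.0208) and -0.60 ± 0.115 in DKO (0.0378). Within batches it was -0.30, -0.66 and -0.70 in FXS and -0.74 and -0.67 in DKO.

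Gal3st1 adds the sulfate that turns galactosylceramide into sulfatide. It had few footprints, 32 to 132 counts per library, at 3.79, 4.48, 3.78 and 3.91 CPM in WT, 3.39, 2.64, 1.81, 3.04 and 2.51 CPM in FXS, 2.00, 3.09 and 2.62 CPM in S6K1, and 1.28, 1.72 and 2.00 CPM in DKO. All mutant libraries were below all WT libraries. The fall in DKO was -1.06 ± 0.212 (SE, adjusted p 0.0456), and the values of -0.62 ± 0.167 in FXS and -0.47 ± 0.215 in S6K1 were not called (0.201 and 0.557).

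Aspa and Enpp2 were the genes that fell in DKO mRNA. Aspa, which splits N-acetylaspartate and so frees acetate, had mRNA of 20.9, 27.5, 20.7 and 19.8 CPM in WT, 16.1, 13, 16.8 and 18.9 CPM in FXS, 20.9, 20.4, 24.0 and 19 CPM in S6K1, and 16.8, 12.8, 12.6 and 16 CPM in DKO. FXS and DKO lay below WT, and S6K1 overlapped it. The log2 fold change was -0.61 ± 0.134 in DKO (SE, adjusted p 0.0132) and -0.46 ± 0.133 in FXS (0.151), and without WT replicate 2 the DKO value was -0.44 (0.0893). Its footprints were 34.4, 45.6, 39.1 and 33.2 CPM in WT and 56.5, 28.2 and 23.9 CPM in DKO, with a log2 fold change of -0.60 ± 0.145 (0.0877) once batch 1, which has no WT library, was accounted for. Enpp2, or autotaxin, which releases lysophosphatidic acid and is also made by choroid plexus, had a DKO mRNA log2 fold change of -0.31 ± 0.0847 (0.0355). Markers of choroid plexus summed to 5.50 to 590 CPM in the mRNA libraries, 10.4 to 590 CPM in WT and 5.50 to 188 CPM in DKO, and their part in the Enpp2 value was not tested.

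Aatk, a kinase of myelinating cells and neurons, rose in DKO mRNA and not in footprints. Its mRNA was 230, 273, 290 and 336 CPM in WT, 257, 345, 346 and 367 CPM in FXS, 229, 308, 291 and 369 CPM in S6K1, and 264, 364, 354 and 382 CPM in DKO. The groups overlapped, and within each of the 4 batches DKO was above WT by 0.19 to 0.42. The log2 fold change was 0.27 ± 0.0619 in DKO (SE, adjusted p 0.0146) and 0.22 ± 0.0619 in FXS (0.129). Its footprints were 234, 183, 161 and 162 CPM in WT, 198, 181, 99.8, 158 and 137 CPM in FXS, 107, 184 and 137 CPM in S6K1, and 95.4, 99.9 and 127 CPM in DKO. DKO was below WT there, at a log2 fold change of -0.53 ± 0.126 that was not called (0.0861).

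Of the other enzymes Qdpr, which recycles tetrahydrobiopterin, fell in DKO footprints by 0.35 (SE 0.0703, adjusted p 0.0464), and that call was lost whenever any 1 of the 7 libraries was left out. Car2, a carbonic anhydrase, Sirt2, a deacetylase of the myelin sheath, and Adamts4, a protease of mature oligodendrocytes, passed no edgeR test against WT. Their DKO footprint log2 fold changes were -0.25 ± 0.126, -0.15 ± 0.0814 and -0.90 ± 0.267.

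The 12 membrane and junction proteins had the lowest footprint medians of the 5 role groups in DKO, at -0.85, and medians of -0.55 in FXS and -0.53 in S6K1, with all 12 genes below 0 in each. Their mRNA medians were 0.07, -0.11 and 0.06 in the same order. Pllp, or plasmolipin, a tetraspan protein of myelin membranes, had footprints of 18.2, 28.7, 16.5 and 18.6 CPM in WT, 13.9, 19.7, 13.3, 12.7 and 11.1 CPM in FXS, 14.6, 16.7 and 14.9 CPM in S6K1, and 12, 10.2 and 9.78 CPM in DKO. Only DKO lay wholly below WT. The DKO log2 fold change was -0.99 ± 0.184 (SE, adjusted p 0.0378), while mean Pllp mRNA was 41.1 ± 6.38 CPM for WT and 48.0 ± 12.9 CPM for DKO (SD, n = 4 each).

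Opalin, a glycoprotein of the myelin paranode, had footprints of 20.1, 32.9, 19.9 and 21.0 CPM in WT, 18, 19.5, 18.9, 14.5 and 11.5 CPM in FXS, 20.9, 17.9 and 15 CPM in S6K1, and 21.9, 15 and 10.3 CPM in DKO. FXS was wholly below WT, and DKO overlapped it through its library of batch 1. The log2 fold change was -0.88 ± 0.157 in DKO (SE, adjusted p 0.0310), -0.78 ± 0.160 in S6K1 (0.216) and -0.55 ± 0.126 in FXS (0.129). Plekhb1, a pleckstrin homology protein of myelinating and sensory cells, had footprints of 45.8, 54.8, 58.1 and 48.9 CPM in WT, 40.1, 39.9, 43.6, 40.8 and 46.1 CPM in FXS, 26.0, 42.2 and 44.8 CPM in S6K1, and 20.4, 33.8 and 38.0 CPM in DKO. DKO lay below every WT and every FXS library. The DKO log2 fold change was -0.56 ± 0.0909 (0.0190), and against FXS it was -0.28 ± 0.0893 (0.762).

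Gjb1, the connexin of oligodendrocyte gap junctions, fell in DKO footprints by 0.96 (SE 0.178, adjusted p 0.0369), from 4.45 CPM ± 1.13 (SD, n = 4) in WT to 2.63 ± 0.50 (n = 3). Cldn11, the claudin that seals the turns of myelin, had footprints of 150, 265, 157 and 161 CPM in WT, 120, 156, 113, 96.4 and 90.7 CPM in FXS, 104, 155 and 141 CPM in S6K1, and 88.9, 96.0 and 96.9 CPM in DKO. DKO was below WT and the value of WT replicate 2 stood far above the rest. The footprint log2 fold changes of -0.71 ± 0.156 in FXS (0.134) and -0.87 ± 0.191 in DKO (0.0756) were not called.

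The other 7 genes of the group were not called in footprints. They are Tspan2 (a tetraspanin), Mal (a raft protein of myelin trafficking), Hapln2 (a link protein of the node of Ranvier), Tmem125, Tmem63a, Gpr37 (an orphan receptor of the lineage) and Lpar1 (a lysophosphatidic acid receptor). Their DKO footprint log2 fold changes ran from -0.37 for Lpar1 to -1.08 for Hapln2. Hapln2 and Tmem125 had few footprints, 19 to 129 and 21 to 96 counts per library. Of the 12 genes, 8 had every DKO footprint library below every WT library, which 7.22% of all genes showed.

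The promoters of 3 of these membrane genes are shown because they fell in DKO footprints or TE and differ in the letters searched for. RefSeq windows on GRCm38.p6, from 250 bases before a start site to 50 after it, were at hand for 23 of the 36 genes, in 35 windows. Capitals mark the letters searched, on both strands: ACAAAG (SOX factors), CTGGCAC (MYRF) and CAGCTG (an E-box of OLIG factors).
Opalin, chr19:41077064-41077363, minus strand: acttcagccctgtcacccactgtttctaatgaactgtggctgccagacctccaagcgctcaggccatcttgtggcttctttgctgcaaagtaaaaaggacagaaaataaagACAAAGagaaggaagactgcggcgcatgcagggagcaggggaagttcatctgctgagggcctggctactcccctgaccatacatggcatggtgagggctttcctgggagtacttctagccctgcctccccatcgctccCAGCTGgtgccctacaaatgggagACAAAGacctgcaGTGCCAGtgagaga
Hapln2, chr3:88027462-88027761, minus strand: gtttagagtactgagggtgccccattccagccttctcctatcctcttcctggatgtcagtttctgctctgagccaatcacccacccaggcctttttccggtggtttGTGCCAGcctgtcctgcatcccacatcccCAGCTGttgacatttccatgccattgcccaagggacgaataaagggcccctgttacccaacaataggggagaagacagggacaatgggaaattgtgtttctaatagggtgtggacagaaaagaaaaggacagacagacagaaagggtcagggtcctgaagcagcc
Plekhb1, chr7:100656916-100657215, minus strand: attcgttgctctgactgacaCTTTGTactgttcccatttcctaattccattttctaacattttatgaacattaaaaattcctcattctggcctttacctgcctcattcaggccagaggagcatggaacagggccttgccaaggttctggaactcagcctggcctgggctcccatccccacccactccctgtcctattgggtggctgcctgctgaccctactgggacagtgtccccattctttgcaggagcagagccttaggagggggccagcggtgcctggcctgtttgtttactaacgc

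The Opalin window held all 3 kinds of match, with ACAAAG in 2 places, the Hapln2 window the reverse complement of the MYRF letters and an E-box, and the Plekhb1 window shown the reverse complement of ACAAAG only, while a further Plekhb1 window held no match. Over the 35 windows ACAAAG was present in 11 (31.4%), against 18.7% of all 32851 windows of that length. CTGGCAC was present in 4 (11.4%), against 5.01%, and CAGCTG in 3 (8.57%), against 16.3%. By gene, the matches lay in 7, 4 and 3 of the 23 genes, in the same order. Some genes have more than 1 window, and overlapping Aatk windows hold the same match of the SOX letters. A match of letters is no binding site. The mRNA of these 3 genes was not called in any mutant, with DKO log2 fold changes of 0.12 for Opalin, 0.12 for Hapln2 and -0.05 for Plekhb1.

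Among the 6 cytoskeletal, carrier and stress genes the footprint medians were -0.42 in FXS, -0.35 in S6K1 and -0.55 in DKO. The mRNA medians, with no gene called, were -0.29 in FXS, -0.18 in DKO and 0.07 in S6K1. Sept4, a septin of the filaments that hold myelin flat, had footprints of 202, 224, 213 and 193 CPM in WT, 155, 136, 173, 145 and 142 CPM in FXS, 154, 172 and 185 CPM in S6K1, and 149, 149 and 147 CPM in DKO. Every mutant library was below every WT library and the replicates were close. The log2 fold change was -0.47 ± 0.0671 in FXS (SE, adjusted p 0.0127) and -0.49 ± 0.0838 in DKO (0.0276), and -0.30 ± 0.0849 in S6K1 (0.319). Its mRNA was 227, 284, 249 and 244 CPM in WT and 198, 211, 204 and 231 CPM in FXS, a log2 fold change of -0.24 ± 0.0851 (0.240). Sept4 lies 1.022 Mb from Rps6kb1 on chromosome 11, so in S6K1 and DKO mice alleles carried along with the targeted locus cannot be told apart from the deficiency, which does not concern FXS.

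Ndrg1, a protein of myelin upkeep and of the response to low oxygen, had footprints of 101, 108, 111 and 95.1 CPM in WT, 82.0, 75, 82.3, 68.7 and 80.5 CPM in FXS, 65.7, 90.2 and 93.9 CPM in S6K1, and 56.0, 70.3 and 71.0 CPM in DKO. Every mutant library was below every WT library. The log2 fold change was -0.42 ± 0.0719 in FXS (SE, adjusted p 0.0323) and -0.55 ± 0.0897 in DKO (0.0205), with mRNA at -0.29 ± 0.112 and -0.25 ± 0.112 (0.283 and 0.184). Ermn (ermin, of the myelin cytoskeleton), Bcas1 (of early myelinating cells), Trf (transferrin, an iron carrier) and Cryab (a small heat shock protein) passed no edgeR test against WT. Their DKO footprint log2 fold changes were -0.55 ± 0.169, -0.37 ± 0.164, -0.87 ± 0.259 and -0.83 ± 0.234.

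Across genes, the separation of WT and mutant footprint libraries went with these values. In FXS 10 of 35 genes had every footprint library below every WT library, which 1.08% of all genes showed. They were Myrf, Sox10, Olig1, Fa2h, Gal3st1, Qdpr, Opalin, Hapln2, Sept4 and Ndrg1. In DKO it was 19 of 35, against 7.22% of all genes, and in S6K1 9 of 35, against 6.41%. No gene of the list had every footprint library of a mutant above WT, which 0.659% (FXS), 9.07% (DKO) and 3.5% (S6K1) of all genes showed. In mRNA 3 of 35 lay wholly below WT in FXS (Aspa, Qdpr and Cryab, against 1.93% of all genes), and in DKO Aspa alone lay wholly below (2.75%) and Olig1 alone wholly above.

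Translational efficiency (TE), the footprint change minus the mRNA change in one model of all 31 libraries, was below 0 for 31 of 35 genes in FXS, 33 in S6K1 and 34 in DKO, with medians of -0.39, -0.44 and -0.68. In DKO 14 of 35 fell, where 4.85% of all genes were called and 3% called lower. By adjusted p they were Myrf (-0.96 ± 0.153, 0.00327), Aatk (-0.81 ± 0.135, 0.00563), Pllp (-1.19 ± 0.209, 0.00808), Gal3st1 (-1.12 ± 0.207, 0.00914), Fa2h (-0.92 ± 0.188, 0.0136), Cldn11 (-1.01 ± 0.208, 0.0173) and Opalin (-1.01 ± 0.228, 0.0216). The rest were Sox10 at -0.73 (0.0254), Olig1 at -1.13 (0.0265), Plekhb1 at -0.51 (0.0343), Tspan2 at -0.61 (0.0381), Hapln2 at -1.20 (0.0414), Mal at -0.71 (0.0454) and Ugt8a at -0.61 (0.0486). The 4 transcription factors had a TE median of -0.85 in DKO, the 12 membrane genes -0.70, the 10 enzymes -0.46, the 3 precursor genes -0.41 and the 6 cytoskeletal, carrier and stress genes -0.32. Without DKO footprint replicate 2 only Myrf kept its call, and without WT footprint replicate 2 the count was 3. Calls over all genes in those refits are not given here.

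In FXS TE fell for 2 of 35, against 0.0952% of all genes called and 0.0659% called lower: Myrf (-0.70 ± 0.136) and Aatk (-0.58 ± 0.120), both at an adjusted p of 0.0497. These sit at the threshold, and both were lost when the TMM factors were set on all genes of each assay. In S6K1 no TE value was called by edgeR, where 0.0293% of all genes were called. At an unadjusted p under 0.05 stood 18, against 7.51% of all genes, and DESeq2 called 2 (0.0879% of all genes) and limma voom 0. The lowest S6K1 values were those of Opalin at -0.99 ± 0.231 (adjusted p 0.218) and Tmem125 at -0.78 ± 0.385 (0.673). The TE of excitatory neuron markers was also below 0 for 7 of 8 genes in each mutant, with medians of -0.27, -0.27 and -0.48.

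In WT cortex the lineage genes carried more footprints per mRNA than most genes. The log2 ratio of mean footprint to mean mRNA CPM was above 0 for all 7, with a median of 0.60 and a range from 0.14 for Myrf to 0.83 for Cspg4, against a median of -0.35 over 13654 genes. Of the 7, 5 lay above the upper quartile of all genes at 0.38. The 28 late genes had a median of -0.32 and a wide range, from -2.95 for Gal3st1 to 1.69 for Ndrg1, with 6 above the upper and 4 below the lower quartile. Adamts4 (1.46), Ermn (1.23) and Ugt8a (1.03) were also high, and Gjb1 (-1.52), Cryab (-1.32) and Bcas1 (-1.26) low. The ratio comes from libraries made by different protocols, so 0 has no absolute meaning.

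**Figure D4:**
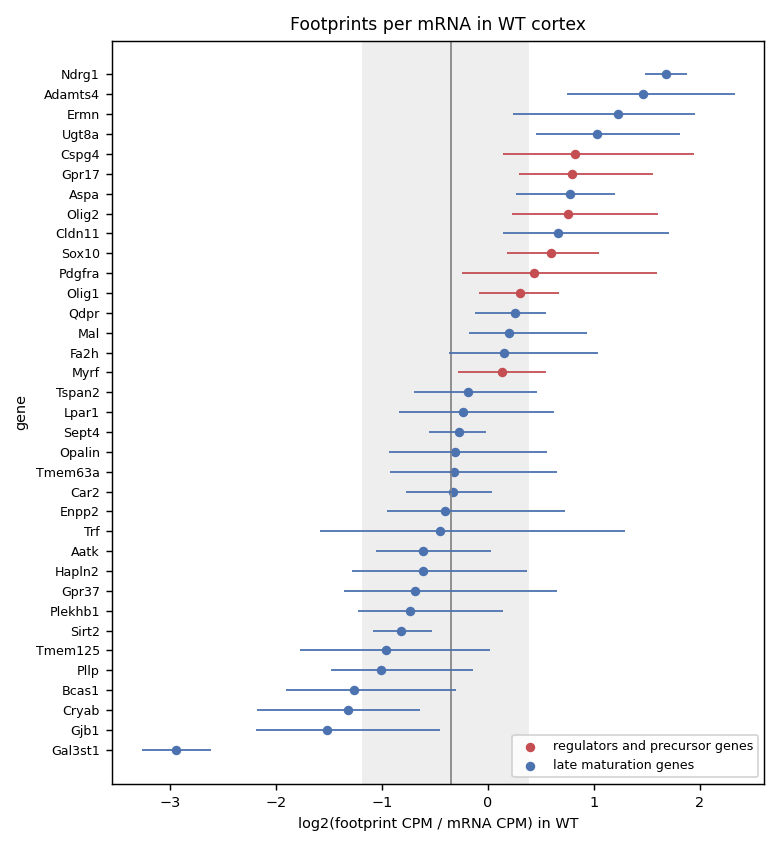
Log2 ratio of footprint to mRNA CPM in WT (x axis) of 35 oligodendrocyte genes (y axis); points are ratios of means, bars run from the lowest footprint over the highest mRNA library to the highest over the lowest, and the grey band and line are the quartiles and median (-0.35) of 13654 genes. All 7 lineage genes lie above 0, and late genes run from -2.95 to 1.69.

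Across the 35 genes, the size of the footprint change bore little relation to that of the mRNA change. Footprint log2 fold changes were below mRNA log2 fold changes for 31 genes in FXS, 33 in S6K1 and 34 in DKO. As a description across genes, which are not independent replicates and share their libraries, Pearson's r between both was 0.12 in FXS, -0.03 in S6K1 and 0.10 in DKO.

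The mutants were also compared with each other, to ask whether loss of S6K1 changed what loss of Fmr1 did. Against S6K1, DKO footprints were below 0 for 35 of 35 genes with a median of -0.24, and 0 were called by edgeR, DESeq2 or limma voom, with 0.00717% of all genes called by edgeR. Of the 35 genes, 7 stood at an unadjusted p under 0.05, against 8.67% of all genes. Of the 35, 11 had every DKO library below every S6K1 library, against 4.86% of all genes. This contrast sets no FXS or WT library on either side, but its batch terms and dispersions were fitted over all genotypes. With only DKO and S6K1 fitted, 30 of 35 were below 0 with a median of -0.22. Within batches, 28 of 35 were below 0 in batch 1 and 30 in batch 3. The lowest p was that of Plekhb1, at -0.36 ± 0.0936 (adjusted p 0.459). Against FXS, DKO footprints had a median of -0.14 with 31 of 35 below 0 and 0 called by each tool, with 0.0143% of all genes called by edgeR. At an unadjusted p under 0.05 stood 4, against 6.19% of all genes. Plekhb1 alone had every DKO library below every FXS library, against 2.1% of all genes. The interaction, the effect of Fmr1 loss without S6K1 minus its effect with S6K1, called 0 genes of the list by each of the 3 tools in mRNA, footprints and TE. Of all genes edgeR and limma voom called 0% in each, and DESeq2 called 5 in footprints, 2 in TE and 0 in mRNA. At an unadjusted p under 0.05 stood 1 gene of the list in mRNA (3.5% of all genes), 6 in footprints (3.07%) and 1 in TE (4.14%). Its footprint median was 0.21, and its lowest p was that of Tspan2, at 0.46 ± 0.181. With DESeq2 the interaction was below 0 for 4 of 35 genes in footprints, 6 in TE and 15 in mRNA. With limma voom these counts were 5, 7 and 12. Without footprint batch 3 edgeR gave 10 in footprints and 11 in TE. A difference between the effects of Fmr1 loss with and without S6K1 was not detected for these genes at this number of libraries.

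In mRNA against S6K1, DKO called 0 by edgeR, with 0.387% of all genes called, 0 by limma voom and 2 by DESeq2, with 2.48% of all genes called. Of these genes 10 stood at an unadjusted p under 0.05, against 14.8% of all genes. Aspa had the lowest p, at -0.53 ± 0.134 (adjusted p 0.0616), and its mRNA alone was lower in every DKO library than in every S6K1 library, against 1.61% of all genes. Against FXS, DKO mRNA was above 0 for 30 of 35 genes with a median of 0.13, and 0 were called by each tool, with 0.0281% of all genes called by edgeR. At an unadjusted p under 0.05 stood 10, against 9.81% of all genes. Gal3st1 and Cryab mRNA was higher in every DKO than in every FXS library, against 1.77% of all genes. TE called 0 in both by each tool, where edgeR called 0.00732% of all genes against S6K1 and 0.0146% against FXS. At an unadjusted p under 0.05 stood 7 against S6K1 (14.6% of all genes) and 5 against FXS (8.36%).

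Other genes of the cell type and markers of other cells were read the same way. Their lists were chosen with earlier results of these data known, so they are no independent check. Of the 6 major myelin genes all were below 0 in footprints in each mutant, with medians of -0.56, -0.46 and -0.61 in FXS, S6K1 and DKO, and Cnp, an enzyme of the myelin cytoplasm, had log2 fold changes of -0.52 in FXS and -0.64 in DKO, both called. Of 35 tested among 36 further oligodendrocyte genes, 31 were below 0 in FXS with a median of -0.29 and 1 fell (Itgb4, -0.68), and 28 were below 0 in DKO with a median of -0.51 and 4 fell (Itgb4, Ppp1r14a, Padi2 and Galnt6, -0.68 to -1.17). In S6K1 23 of 35 were below 0 with a median of -0.30. Astrocyte markers had footprint medians of 0.06, 0.00 and -0.02 over 10 genes, microglial markers 0.06, 0.05 and -0.03 over 10 genes, and excitatory neuron markers -0.11, -0.19 and -0.20 over 8 genes. Endothelial markers had 0.04, -0.50 and -0.34 over 8 genes, and striatal markers -0.05, 0.62 and 0.23 over 7 genes, none called. The part of unequal dissection in the oligodendrocyte values was not tested.

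The authors' deposited tables, which cover FXS and DKO against WT, list all 35 genes. In their footprint table for FXS 35 of 35 were below 0 and 16 had an adjusted p under 0.05, all lower, against 1.07% of all genes listed. An adjusted p was missing for 4 of the 35 there. In the authors' deposited table for DKO footprints 34 were below 0 and 22 passed, all lower, against 2.47%. For Myrf the authors' deposited tables give footprint log2 fold changes of -0.70 in FXS and -0.84 in DKO, with adjusted p of 5.06e-07 and 1.42e-06. Of the other transcription factors, Sox10 passed there in FXS and DKO footprints (adjusted p 0.0247 and 0.0200). Olig2 passed in FXS only (0.0429 and 0.278), and Olig1 in neither (0.282 and 0.145). In the authors' deposited TE tables Myrf alone passed in FXS (adjusted p 0.0478), and 6 genes passed in DKO, against 0.0167% and 0.725% of all genes. For FXS mRNA the authors' deposited values have 1 gene passing, higher, where 1.45% of all genes listed passed. An adjusted p was missing there for 10 of the 35. For DKO mRNA they have 2 passing lower and 3 passing higher, where 8.12% of all genes listed passed. There an adjusted p was missing for 2 of the 35.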

How the data were processed

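Whole-number read counts per gene over coding sequences were deposited by the authors in 1 table for mRNA and 1 for footprints, each of 20436 gene symbols. The submitters' processing notes name cutadapt 2.0, Bowtie2, TopHat2, RSEM and the build mm10, with no role or order. The authors' deposited comparison tables hold, per gene, a mean normalized signal, a log2 fold change with its error, a test score, and a p-value with its adjusted p-value; the settings behind them are not given in the sources used here, and the mean signal and the score were not used.

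From the counts, genes were kept by filterByExpr (at least 10 counts at the median library size in as many libraries as the smallest genotype, 15 in all), which left 14215 genes in mRNA, 13953 in footprints and 13654 for TE. edgeR 4.0.16 (R 4.3.3) was fitted to all genotypes of an assay with batch and genotype as terms, TMM factors and robust quasi-likelihood dispersions. TE came from 1 model of both assays with batch nested in assay and TMM factors set on genes kept in both. That setting was adopted after TMM factors on the genes of each assay had also been run, with both results seen. An SE is the log2 fold change divided by the root of its F. P-values were Benjamini-Hochberg adjusted over all genes tested. DESeq2 1.42.0 and limma 3.58.1 (voom) were alternatives, beside RLE factors, no filter, no batch term, only the 2 genotypes compared, Myrf and Nkx6-2 counted as late genes, and leaving out RNA batch 5 or each library in turn. TMM factors per assay and leaving out footprint batch 3 were added after seeing the data. The edgeR fits were tested on simulated counts for FXS against WT in mRNA, footprints and TE, and for DKO against WT in footprints and TE. Other contrasts and tools were not simulated, and the simulated counts held no batch effect.

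Libraries of the same batch deviated together: the median correlation of their deviations from genotype means was 0.27 over 24 pairs in mRNA and 0.30 over 20 pairs in footprints, against -0.14 and -0.10 for pairs of other batches, the batch being a label. No 2 libraries of a genotype agreed within counting noise (smallest chi-square per degree of freedom 4.81 in mRNA and 8.09 in footprints).

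The genes and the marker lists were chosen with earlier results of these data known. Genes were given in full where they were among the 14 with the lowest adjusted p over the 9 tests against WT or belonged to the lineage genes, and others were named by role. Levels of different genes were not compared, as gene lengths were not at hand.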

Additional observations from a re-analysis of the deposited data

Results flagged for a closer look

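Of 120 groups of 4 or 5 libraries tested for an outlying library, 9 had one, and chance gives about 1 in 20. WT footprint replicate 2, of batch 3, was high in 4 of them: Cldn11 at 265 CPM against 150 to 161 CPM in the other WT libraries, Opalin at 32.9 against 19.9 to 21.0, Gpr17 at 35.3 against 24.1 to 25.6, and the summed lineage genes at 307 against 249 to 251. FXS footprint replicate 3, also of batch 3, was low for Olig1 at 24.1 CPM against 53.7 to 59.5 and for Sox10 at 27.6 against 40.3 to 44.1. In mRNA, Pllp had 28.9 CPM in DKO replicate 1 against 52.3 to 56.0, Gal3st1 had 23.5 CPM in FXS replicate 2 against 27.5 to 28.2, and Aspa had 27.5 CPM in WT replicate 2 against 19.8 to 20.9. The part of batch in these values was not tested.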

How the results depend on the processing

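Of 37 called values against WT, none reversed under any alternative, and 199 of 406 refits with 1 library left out kept the call. DESeq2 called 1 gene in FXS mRNA and 2 in DKO against S6K1 mRNA, where it called 1.41% and 2.48% of all genes. It called 14, 1 and 20 in FXS, S6K1 and DKO footprints (0.788%, 0.287% and 2.08% of all genes), and 4 and 2 in FXS and S6K1 TE (0.952% and 0.0879%). The 2 FXS TE calls became 0 with RLE factors, no low-count filter, limma voom, TMM factors on the genes of each assay, only the 2 genotypes compared, without RNA batch 5 and without footprint batch 3. With only the 2 genotypes compared, 5 genes were called in FXS mRNA, 4 lower and 1 higher, against 3.2% of all genes. In FXS and in DKO footprints 0 were called, against 0.0146% and 0.0292% of all genes. Without RNA batch 5, DKO TE had 9 calls, all lower, where 147 genes were called higher and 196 lower of 13646 tested.

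Replicate numbers pair nothing, so the replicate block is the batch of the labels. With no replicate block, calls were 0 in DKO mRNA, 0 in FXS footprints, 0 in DKO footprints, 0 in FXS TE and 1 in DKO TE. Over all genes the calls were then 0 higher and 2 lower in DKO mRNA (of 14215). They were 0 and 1 in FXS footprints and 1 and 5 in DKO footprints (of 13953). In TE they were 0 and 1 in FXS and 1 and 1 in DKO (of 13654). The medians were then -0.44 (lineage) and -0.29 (late) in S6K1 footprints, -0.84 for lineage DKO footprints, and -0.55 and -1.02 for lineage TE in S6K1 and DKO.

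Without footprint batch 3, FXS footprints had 3 calls, DKO 0 and DKO TE 2. Over all genes the calls were then 1 higher and 13 lower in FXS footprints and 2 higher and 2 lower in DKO footprints, of 13929 tested. In DKO TE they were 11 higher and 11 lower of 13638. The footprint medians were -0.24 (lineage, FXS), -0.26 (all 35, S6K1), -0.27 (late, S6K1) and -0.27 (lineage, DKO), and DKO TE medians were -0.51 for all 35 and -0.51 for lineage genes. With Myrf counted as late, the lineage S6K1 footprint median was -0.10.

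With 1 library left out, calls ran from 0 to 3 in FXS mRNA, 0 to 5 in DKO mRNA and 0 to 3 in DKO against S6K1 mRNA. They ran from 0 to 12, 0 to 1 and 0 to 17 in FXS, S6K1 and DKO footprints, and 0 to 2, 0 to 4 and 1 to 20 in FXS, S6K1 and DKO TE. These counts are of the listed genes, and calls over all genes in the same refits are not given here. Medians ran from 0.049 to 0.27 for lineage S6K1 mRNA, and in footprints from -0.58 to -0.28 (lineage, FXS), -0.51 to -0.24 (all 35, S6K1), -0.40 to 0.079 (lineage, S6K1), -0.55 to -0.29 (late, S6K1) and -0.66 to -0.16 (lineage, DKO). For lineage TE they ran from -0.38 to 0.031 in S6K1 and from -0.81 to -0.46 in DKO. The causes were not tested. In simulated counts the footprint fit recovered 53% (FXS) and 22% (DKO) of changes of 0.5 on the log2 scale, so changes of that size can be missed.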
